A study of Mus musculus with 11 samples.

Results

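The genes described here are the heat shock chaperones Hspa1a, Hspa1b, Hspa5, Hspa8, Hsp90aa1, Hsp90ab1, Hspb1 and Dnajb1 and the α-crystallins Cryab and Cryaa, measured in the RPE/choroid of aged mice. They were chosen by symbol, and all 10 were found among the 14602 genes of the count table. The naïve control group held 6 libraries of untreated C57BL/6J mice aged 12 months. The laser treated group held 5 libraries of C57BL/6J mice that received 2RT nanosecond laser treatment when 9 months old and were collected 3 months later, again at 12 months. No genotype other than the inbred strain is given for either group, and the sex of the mice is not given. RNA came from eye cups lysed after the neural retina had been taken off, so that RPE, choroid and any attached cells were measured together, and in such bulk samples fewer cells of a type and less RNA per cell cannot be told apart. The RNA was amplified with a SmartSeq kit before the libraries were made. Whether each library came from a separate mouse is not stated, and p-values therefore measure the spread between these libraries.

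Heat shock proteins bind proteins that are unfolded or being made and help them to reach or keep their shape. HSP70 proteins bind short exposed stretches of their clients with the help of J-domain partners such as Dnajb1, HSP90 proteins take over clients that are nearly folded, and small heat shock proteins, to which αA- and αB-crystallin (Cryaa and Cryab) belong, hold unfolded proteins in solution without using ATP. Most cytosolic members are switched on by heat shock factor 1, which binds alternating GAA and TTC units upstream of its targets. The α-crystallins are the most abundant proteins of the lens together with the β- and γ-crystallins, and Cryab and, at lower levels, Cryaa are also made in retina and RPE, a tissue exposed to light and oxidative stress.

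None of the chaperones differed between laser treated and naïve control RPE/choroid after adjustment over all genes. Hsp90aa1, the stress-responsive cytosolic HSP90, was lower in laser treated libraries at an unadjusted p alone, and the groups of all 10 genes overlapped. The Cryaa and Cryab differences rested on naïve control library 4, in which Cryaa reached 9648 CPM (counts scaled to a common library size) against 2.25 to 291 CPM in the 10 other libraries. By the quasi-likelihood test of edgeR, adjusted by Benjamini-Hochberg, 0 of the 14602 genes (0%) passed an adjusted p of 0.05, and 2325 genes (15.9%) had an unadjusted p under 0.05, of which 1203 (8.24%) were higher and 1122 (7.68%) lower in laser treated libraries. Of the 10 chaperones and α-crystallins, 0 were higher and 1 was lower at an unadjusted p under 0.05. DESeq2 called 547 genes at an adjusted p under 0.05 and 2491 at an unadjusted one, and Hsp90aa1 was among the former. Groups without overlap in CPM were found for 330 genes (2.26%) and for 0 of the 10 members. The median log2 fold change of the members was -0.07, beside -0.02 over all genes, with 4 members above 0 and 6 below.

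**Figure D1:**
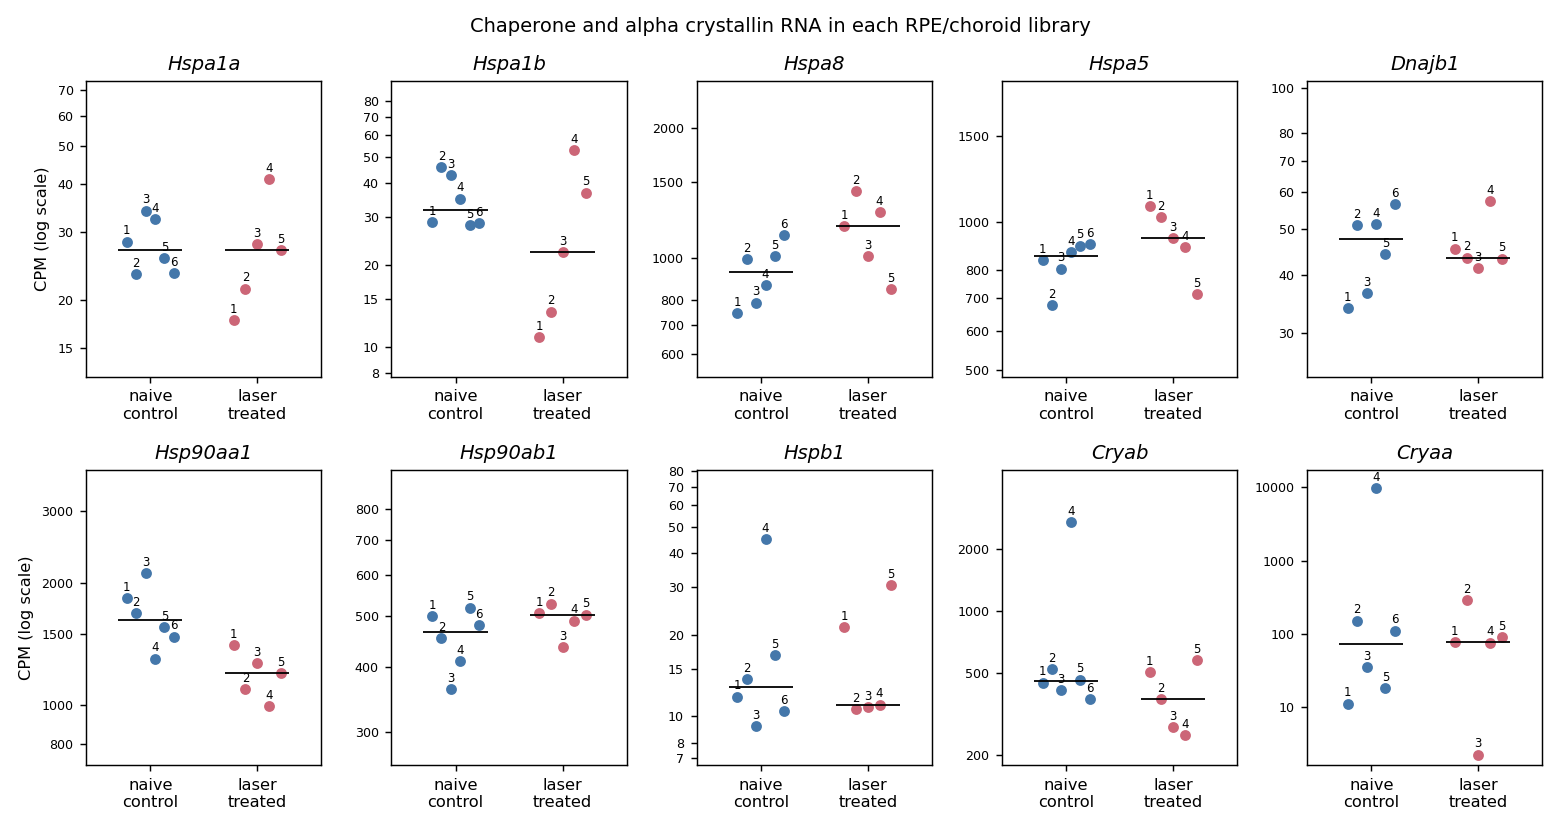
CPM (log scale) of each of the 10 genes in the 6 naïve control and 5 laser treated libraries; points are libraries, labelled by their number, and the black line is the group median. The groups overlap in every panel. Naïve control library 4 stands far above the others for Cryaa and Cryab, and it is also the highest library for Hspb1.

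Depth did not limit these genes. The libraries held 25700881 to 38755994 counts, and the lowest count of any member in a library was 79, for Cryaa in laser treated library 3. Values below are CPM after TMM scaling, which corrects for library size and composition, and fold changes are on the log2 scale, with positive values higher in laser treated libraries. Some features of the libraries were compared between the groups. A GC contrast was taken as the mean log2 deviation of 3301 genes with a transcript GC content of at least 55% less that of 3565 genes with at most 45%. It ran from -0.59 to -0.0042 in naïve control and from 0.0164 to 0.44 in laser treated libraries, so that the groups did not overlap. The first lines of the transcript files carry a label, R1 or R2, whose meaning is not given in the sources used here. It is R1 in naïve control libraries 1 to 3 and laser treated libraries 1 and 2 and R2 in the others, so that both groups hold both labels. The summed level of 17 neural retina markers ran from 6848 to 28254 CPM in naïve control and from 4950 to 21040 CPM in laser treated libraries, and the groups overlapped. All 12 RPE markers were measured, with the summed level between 80223 and 133917 CPM and Rgr and Ttr, a retinoid-binding opsin and a carrier of thyroxine and retinol-binding protein, the most abundant, while the RPE channel gene Best1 was at or near 0 (at most 3.08 CPM in naïve control libraries).

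The members were put in order of level only by CPM per kilobase of annotated exon. Percentiles of level, and the most abundant gene of a list, are by CPM, which is not corrected for gene length. By the naïve control median, Hsp90aa1 was highest with 412 CPM per kb, followed by Cryab with 310, Hspa8 with 216, Hspa5 with 202 and Hsp90ab1 with 156 CPM per kb. A second tier held Cryaa with 35.3, Dnajb1 with 14.9, Hspb1 with 12.4, Hspa1b with 11.4 and Hspa1a with 9.09 CPM per kb. Hspa8, Hspa5 and Hsp90ab1 are made at high levels without stress, Hsp90aa1 is both expressed at rest and raised by stress, and Hspa1a, Hspa1b, Dnajb1 and Hspb1 are known for their induction by heat. Neighbours in the order were not cleanly apart, since no adjacent pair had ranges that did not touch. Hspa5 stood above Hsp90ab1 in 11 of 11 libraries and Hsp90ab1 above Cryaa in 10, but Dnajb1 stood above Hspb1 in only 6. Exon lengths were taken over all annotated transcripts, including ones with retained introns, which lowers the values of genes with such transcripts. In TPM from the transcript files, the naïve control means of Hspa8, Hsp90aa1 and Cryaa were 2401 ± 990, 2144 ± 974 and 2094 ± 4793 (SD, n = 6). The SD of Cryaa exceeded its mean in both units. These TPM are sums over assembled transcripts of 1 exon each, so genes assembled in more pieces can have higher sums. In them Hspa8 stood above Hsp90aa1, unlike in CPM per kb, and they were not used to put genes in order.

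The spread between libraries differed widely among the members. Hsp90ab1 had a within-group SD of 0.16 on the log2 scale and ranked at percentile 2.26 of all genes, that is, among the steadiest. Hspa5 followed with 0.19, Hsp90aa1 with 0.22, Dnajb1 with 0.25 and Hspa8 with 0.26, all under the median of 0.49 over all genes. Hspa1a, with an SD of 0.35, was also under that median. Hspa1b (SD 0.68) and Hspb1 (SD 0.77) varied more, and Cryab (SD 0.88) and Cryaa (SD 3.15) most, Cryaa at percentile 99.8 of all genes. Hence 4 of the 10 members were above the median spread. These ranks are over genes of all levels, and spread was not compared among genes of like level. By level Hsp90ab1, Hspa5, Hspa8 and Hsp90aa1 stood at percentiles 98.7 to 99.7, and so did Cryab, at 98.7.

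Hsp90aa1 and Hsp90ab1 encode the inducible and the constitutive cytosolic HSP90. Hsp90aa1 lies on the minus strand of chromosome 12 from 110690605 to 110702728 (GRCm38), with 11 exon blocks, and Hsp90ab1 on the minus strand of chromosome 17 from 45567775 to 45573271, with 9. Hsp90aa1 had 1301 CPM in the lowest, 1618 in the median and 2110 in the highest naïve control library. In laser treated libraries 1 to 5 it had 1405, 1092, 1271, 994 and 1198 CPM. Only laser treated library 1 reached above the lowest naïve control library, number 4, and the other 4 laser treated libraries lay under all naïve controls. The log2 fold change was -0.48 (SE 0.14, 95% interval -0.77 to -0.18), with an unadjusted p of 0.0038 and an adjusted p of 0.175 in edgeR's test, the smallest adjusted p of the members, and lower in 5 of 5 laser treated libraries than the naïve control median.

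This difference depended on how the counts were treated. With DESeq2 the log2 fold change of Hsp90aa1 was -0.48 with an adjusted p of 0.0246. With the GC trend of each library removed it was -0.23 (95% interval -0.47 to 0.0057, unadjusted p = 0.055, adjusted p = 0.613 in edgeR's test), and Hsp90aa1, at 43.7% GC, is the member with the lowest GC content. On log2(TPM + 1) with limma it was -0.07 (SE 0.36). In that unit naïve control libraries 4 and 6 had 1171 and 778 TPM beside 2313 to 3308 TPM in the 4 others, and laser treated libraries 1 to 5 had 1276, 1588, 2337, 2530 and 1697 TPM. Within the label R1 it was -0.56 (SE 0.20) and within R2 -0.30 (SE 0.14). The part of the GC contrast in this difference was not tested beyond these fits. Schwann cell and myelin markers also moved with the groups. Of 10 markers 8 were measured, and 5 of them were higher at an unadjusted p under 0.05, beside 8.24% of all genes. Their summed level was 421 to 746 CPM in naïve control and 622 to 1392 CPM in laser treated libraries. Against their score Hsp90aa1 had r = -0.75 (permutation p = 0.0081, adjusted p = 0.122) and rho = -0.70 (permutation p = 0.0208, adjusted p = 0.273), and their part in the difference was not tested.

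Hsp90ab1 had 363, 467 and 519 CPM in the lowest, median and highest naïve control library and 507, 528, 436, 490 and 503 CPM in laser treated libraries 1 to 5. Laser treated library 2 lay just above the naïve control range and the 4 others inside it. Its log2 fold change was 0.12 (SE 0.11, 95% interval -0.12 to 0.36, adjusted p = 0.676 in edgeR's test). The raw count ratio of Hsp90aa1 to Hsp90ab1 was 3.00 to 5.81 in naïve control libraries, with a median of 3.42. In laser treated libraries it was 2.03 to 2.91, with a median of 2.38, and the groups did not overlap. Among the 45 pairs of members this was the only pair whose log2 difference did not overlap between the groups; it was singled out after the values were seen and carries no test. In TPM the ratio ran from 0.962 to 4.62 in naïve control and from 1.346 to 2.87 in laser treated libraries and overlapped. Hsp90ab1 has a GC content of 51.0%, so the count ratio compares a gene of lower with one of higher GC content.

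**Figure D2:**
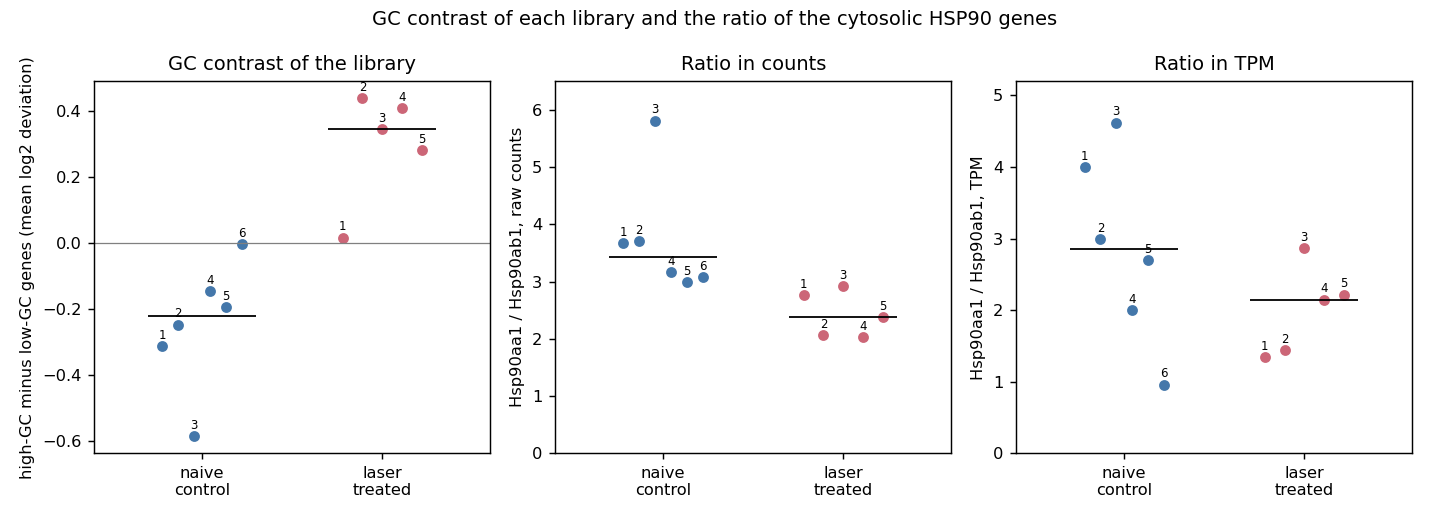
Per library, the GC contrast (mean log2 deviation of high-GC less low-GC genes, left), the ratio of Hsp90aa1 to Hsp90ab1 in raw counts (middle) and the same ratio in TPM (right); points are libraries, labelled by number, and lines are group medians. The groups do not overlap in the GC contrast or in the count ratio (naïve control at least 3.00, laser treated at most 2.91), and they overlap in the TPM ratio.

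Among the HSP70 genes, Hspa8 encodes the constitutive cytosolic chaperone (Hsc70), which also strips clathrin from vesicles, and Hspa5 encodes BiP, the HSP70 of the endoplasmic reticulum. Hspa8, on the plus strand of chromosome 9 from 40800984 to 40810087, had 744, 930 and 1129 CPM in the lowest, median and highest naïve control library. In laser treated libraries 1 to 5 it had 1185, 1425, 1011, 1275 and 846 CPM. Laser treated libraries 1, 2 and 4 lay above every naïve control and library 5 below the naïve control median. For Hspa8 the log2 fold change was 0.32 (SE 0.15, 95% interval -0.0057 to 0.64), with an unadjusted p of 0.054 and an adjusted p of 0.323 in edgeR's test. It was 0.65 (SE 0.21) within the label R1 and 0.08 (SE 0.18) within R2, and the difference between the labels had an unadjusted p of 0.060 and an adjusted p of 0.551 in edgeR's test. In TPM with limma it was 0.77 (SE 0.26, adjusted p = 0.244).

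Hspa5 lies on the plus strand of chromosome 2 from 34771970 to 34777547, with 7 exon blocks. Its naïve control values had a minimum of 677, a median of 854 and a maximum of 902 CPM, and laser treated libraries 1 to 5 had 1078, 1022, 929, 888 and 713 CPM. Laser treated libraries 1, 2 and 3 exceeded all naïve controls, while library 5 was near the bottom of their range. This gave a log2 fold change of 0.16 (SE 0.12, 95% interval -0.11 to 0.42, adjusted p = 0.593 in edgeR's test). It was 0.47 (SE 0.17) within the label R1 and -0.06 (SE 0.14) within R2. The difference between the labels had an unadjusted p of 0.0299 and an adjusted p of 0.478 in edgeR's interaction test. With the GC trend removed the log2 fold change of Hspa5 was 0.32 (SE 0.13, unadjusted p = 0.0255, adjusted p = 0.555) and that of Hspa8 0.46 (SE 0.16, unadjusted p = 0.0135, adjusted p = 0.549). Hspa5 and Hspa8 have GC contents of 45.6% and 45.9%, and the part of the GC contrast in their values was not tested beyond these fits.

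Hspa1a and Hspa1b encode nearly identical copies of the heat-inducible cytosolic HSP70. They lie next to each other on the minus strand of chromosome 17, each with 1 exon: Hspa1a from 34969190 to 34972156 and Hspa1b from 34956436 to 34959238, a gap of 9952 bases. Of all 50-base stretches of the Hspa1a transcript 58.8% occur in that of Hspa1b, and of the 100-base stretches 47.1%, so reads can be split between the genes or lost, and the separate values are uncertain. The RefSeq windows upstream of their start sites show how alike the genes are. Each runs over the 250 bases before the start site on GRCm38.p6, 5′ to 3′ on the minus strand. Both hold the heat shock element, GAANNTTC or TTCNNGAA, in capitals.
Hspa1a, chr17:34972157-34972406: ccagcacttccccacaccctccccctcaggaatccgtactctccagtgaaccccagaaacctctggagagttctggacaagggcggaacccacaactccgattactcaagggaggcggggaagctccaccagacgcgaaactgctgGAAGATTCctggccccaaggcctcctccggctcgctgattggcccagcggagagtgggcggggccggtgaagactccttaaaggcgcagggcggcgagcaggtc
Hspa1b, chr17:34959239-34959488: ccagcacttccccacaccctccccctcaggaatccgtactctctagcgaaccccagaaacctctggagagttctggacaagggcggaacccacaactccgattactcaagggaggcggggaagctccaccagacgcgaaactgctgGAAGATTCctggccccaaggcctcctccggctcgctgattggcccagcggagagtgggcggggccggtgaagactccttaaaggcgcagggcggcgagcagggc

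Over the whole windows of 300 bases, 50 of them after the start site, the sequences were 98.7% identical. Counted from 1 at the 5′ end of the window and from Hspa1a to Hspa1b, they differed by C44T, T47C, T249G and C276T. The heat shock element starts 104 bases before the start site in both, and a CCAAT box, searched on both strands, starts 67 bases before it. An element of this form was found in 15.1% of the 32851 RefSeq windows of mouse genes of the same length, and a match of letters does not show that a factor binds there.

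Hspa1a had 23.3, 27.0 and 34.1 CPM in the lowest, median and highest naïve control library and 17.7, 21.4, 27.9, 41.0 and 26.9 CPM in laser treated libraries 1 to 5. The laser treated values lay on both sides of the naïve control range. The log2 fold change was -0.05 (SE 0.21, 95% interval -0.51 to 0.41, adjusted p = 0.948 in edgeR's test), and its sign turned in several alternatives.

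Hspa1b had 28.0, 31.9 and 45.7 CPM in the lowest, median and highest naïve control library and 10.8, 13.5, 22.3, 52.8 and 36.9 CPM in laser treated libraries 1 to 5. Laser treated libraries 1, 2 and 3 lay below all naïve controls and library 4 above all of them. Its log2 fold change was -0.35 (SE 0.36, 95% interval -1.12 to 0.41, adjusted p = 0.702 in edgeR's test). Libraries 1 and 2 carry the label R1, and within R1 the fold change was -1.66 (SE 0.32, unadjusted p = 0.00104, adjusted p = 0.144), against 0.31 (SE 0.32, adjusted p = 0.916) within R2. The difference of the laser effect between the labels was 1.97 on the log2 scale (SE 0.47), with an unadjusted p of 0.00135 and an adjusted p of 0.321 in edgeR's interaction test. The interaction passed an unadjusted p of 0.05 for 9.5% of all genes and an adjusted one for 0. The summed CPM of both genes, which does not depend on how reads were split between them, was 52.0 to 76.9 in naïve control libraries and 28.5, 34.8, 50.1, 93.8 and 63.8 in laser treated libraries 1 to 5.

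Dnajb1, a J-domain partner of HSP70 known for its induction by heat, lies on the plus strand of chromosome 8 from 83608193 to 83612653, with 4 exon blocks. Its naïve control CPM were 33.9, 47.6 and 56.5 in the lowest, median and highest library, and laser treated libraries 1 to 5 had 45.5, 43.5, 41.3, 57.5 and 43.3 CPM. Laser treated library 4 stood apart from the other 4, which lay within the naïve control range. Its log2 fold change was 0.02 (SE 0.16, 95% interval -0.33 to 0.37, adjusted p = 0.971 in edgeR's test). Laser treated library 4 was also the highest library for Hspa1a and Hspa1b, and it had the lowest summed level of RPE markers, 80223 CPM.

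Hspb1 encodes the small heat shock protein HSP25, the mouse counterpart of human HSP27, which guards actin filaments. It lies on the plus strand of chromosome 5 from 135887919 to 135889563, with 2 exon blocks and, at 61.7%, the highest GC content of the members. The 150 bases before its start site on GRCm38.p6 (plus strand, RefSeq) are shown for their pair of heat shock elements, in capitals, which start 117 and 97 bases before the start site.
Hspb1, chr5:135887769-135887918: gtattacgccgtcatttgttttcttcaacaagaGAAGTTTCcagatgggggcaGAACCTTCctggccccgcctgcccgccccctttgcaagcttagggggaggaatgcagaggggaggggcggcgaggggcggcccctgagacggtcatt

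Hspb1 had 9.24, 12.8 and 45.05 CPM in the lowest, median and highest naïve control library. In laser treated libraries 1 to 5 it had 21.4, 10.6, 10.8, 11.1 and 30.4 CPM. Naïve control library 4 and laser treated libraries 1 and 5 were high, and the 8 other libraries lay between 9.24 and 16.9 CPM. The log2 fold change was -0.08 (SE 0.44, 95% interval -1.02 to 0.85, adjusted p = 0.954 in edgeR's test), and without naïve control library 4 it was 0.43 (SE 0.34, adjusted p = 0.587). The genes most like Hspb1 in log2 CPM over the 11 libraries were Egr1, an immediate early transcription factor, with a Pearson's r of 0.94, and Hspb2, a small heat shock protein of muscle, with 0.93. Egr1 had 156 CPM in naïve control library 4, 85.8 in laser treated library 1 and 204 in laser treated library 5, and 11.7 to 26.2 CPM in the 8 others, so that the same 3 libraries were high. Hspb2 ran from 2.72 to 13.8 CPM with its highest value in naïve control library 4. Without that library r was 0.95 for Egr1 and 0.86 for Hspb2.

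Hspa5 has no heat shock element of the form GAANNTTC or TTCNNGAA in its RefSeq window. Its 150 bases before the start site (plus strand, GRCm38.p6) are shown as the contrast, with the spaced pair of CCAAT and CCACG letters that is known as the endoplasmic reticulum stress element in capitals.
Hspa5, chr2:34771940-34772089: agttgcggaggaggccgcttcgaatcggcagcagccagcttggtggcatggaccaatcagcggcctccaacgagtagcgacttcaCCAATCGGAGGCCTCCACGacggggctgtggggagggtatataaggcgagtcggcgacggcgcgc

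That pair, 9 bases apart, starts 65 bases before the start site of Hspa5 and was found in 39 of the 32851 windows (0.119%), and CCAAT alone in 37.4% of them. Hspa5 holds CCAAT 4 times on either strand. The windows of Dnajb1 and Cryaa held no heat shock element of this form, which says only that these letters were not found there. RefSeq windows were at hand for 6 of the 10 members; Hspa8, Hsp90aa1, Hsp90ab1 and Cryab were not among them.

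Cryaa, αA-crystallin, lies on the plus strand of chromosome 17 from 31677807 to 31681733, with 4 exon blocks. Its naïve control values were 11.2 CPM in library 1, 152 in library 2, 35.5 in library 3, 9648 in library 4, 18.4 in library 5 and 111 in library 6. Laser treated libraries 1 to 5 had 76.6, 291, 2.25, 75.9 and 91.6 CPM. Naïve control library 4, with 320837 counts, was alone at the top, 126 times the median of the other libraries, and laser treated library 3, with 79 counts, was lowest. The group medians were alike, 73.4 CPM in naïve control and 76.6 CPM in laser treated libraries. The log2 fold change of -3.95 (SE 2.06, 95% interval -8.55 to 0.65, adjusted p = 0.389 in edgeR's test) turned to 0.69 (SE 0.97, 95% interval -1.44 to 2.82, adjusted p = 0.802) without naïve control library 4.

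Cryaa varied with lens genes. The 2 genes most like it over the 11 libraries were Crybb2 and Cryba1, β-crystallins of the lens, with a Pearson's r of 0.995 and 0.985 of log2 CPM, and of 0.989 and 0.963 without naïve control library 4. The raw count ratio of Cryaa to Crybb2 stayed between 0.86 and 1.67 while Crybb2 itself ran from 2.28 to 9128 CPM. In naïve control library 4 Cryba1 had 5751, Crygs 3146, Cryba2 1296 and Cryba4 718 CPM, against at most 163, 98.9, 38.6 and 26.1 CPM in any other library. Lens fibre genes were high there too: Lgsn, lengsin, had 421 CPM against at most 7.14, Bfsp2, a beaded filament protein, 229 against at most 24.9, and Mip, the lens aquaporin, 107 against at most 1.49 CPM. Crygn, a γ-crystallin that retina also expresses, had 15.0 CPM in naïve control library 4 and 3.70 to 13.9 CPM in the others and did not stand apart. All crystallins together took 3.27% of the counts of naïve control library 4 and 0.0297% to 0.125% of the counts of the others. The correlation of Cryaa with the mean z-score of the 8 measured β- and γ-crystallins was 0.98 (permutation test, p = 1e-05, the smallest these permutations can give; adjusted over 60 relations, 0.0006), Spearman's rho was 0.98 (permutation p = 1e-05, adjusted p = 0.0006), r was 0.91 without the 2 libraries farthest from the median, and r was 0.995 over the 5 libraries labelled R1 and 0.98 over the 6 labelled R2. Whether lens tissue was present in any eye cup was not tested.

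**Figure D3:**
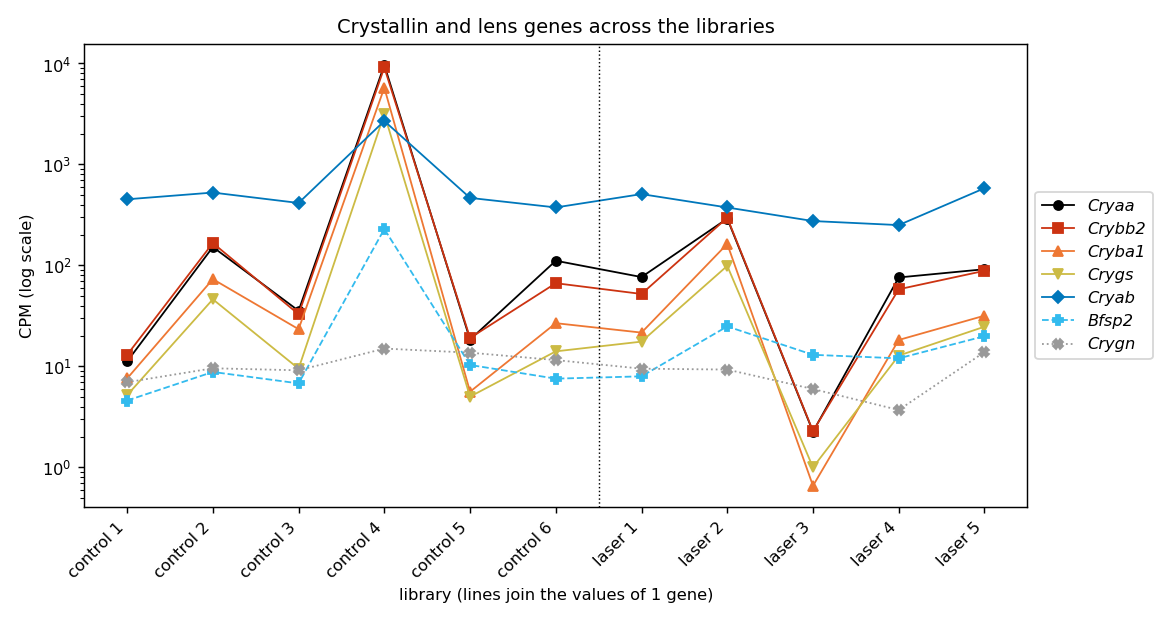
CPM (log scale) of Cryaa, Cryab, lens β- and γ-crystallins, the lens fibre gene Bfsp2 and Crygn in each library; lines join the values of 1 gene and the dotted line divides naïve control from laser treated libraries. Cryaa, Crybb2, Cryba1 and Crygs move together from laser treated library 3 (2.25 CPM of Cryaa) to naïve control library 4 (9648 CPM), while Cryab stays between 251 and 581 CPM outside naïve control library 4 and Crygn runs from 3.70 to 15.0 CPM.

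Cryab, αB-crystallin, is made in many tissues besides the lens, among them muscle, glia and RPE. It lies on the plus strand of chromosome 9 from 50751325 to 50756636, with 5 exon blocks, and overlaps Hspb2, on the minus strand from 50751078 to 50752354, by about a kilobase in the annotation. The library kit does not keep the strand, so reads from the overlap cannot be told apart. Cryab had 375, 459 and 2693 CPM in the lowest, median and highest naïve control library, and 508, 375, 275, 251 and 581 CPM in laser treated libraries 1 to 5. Outside naïve control library 4 the controls lay between 375 and 526 CPM, with laser treated libraries 3 and 4 below, library 2 at their lower edge and library 5 above them. For Cryab the log2 fold change was -1.05 (SE 0.54, 95% interval -2.21 to 0.12, unadjusted p = 0.074, adjusted p = 0.368 in edgeR's test) and, without naïve control library 4, -0.18 (SE 0.22, 95% interval -0.66 to 0.30, adjusted p = 0.770). Cryab had an unadjusted p under 0.05 in 3 alternatives that kept this library: -1.21 with the GC trend removed (unadjusted p = 0.0406, adjusted p = 0.579), -1.37 with the neural retina score as a covariate (unadjusted p = 0.0181, adjusted p = 0.242) and -1.21 without naïve control library 6 (unadjusted p = 0.0437, adjusted p = 0.246). Against the score of the β- and γ-crystallins Cryab had r = 0.86 (permutation p = 0.0076, adjusted p = 0.122) and rho = 0.51 (permutation p = 0.113, adjusted p = 0.429), and r = 0.22 without the 2 libraries farthest from the median. Cryab was 122 times Cryaa in laser treated library 3, 1.29 times in laser treated library 2 and 0.28 times in naïve control library 4, in raw counts. The genes most like Cryab were Lim2, a lens fibre membrane protein, with an r of 0.95, and Fabp5, a fatty acid binding protein, with 0.93. Without naïve control library 4, r was 0.64 and 0.68.

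**Figure D4:**
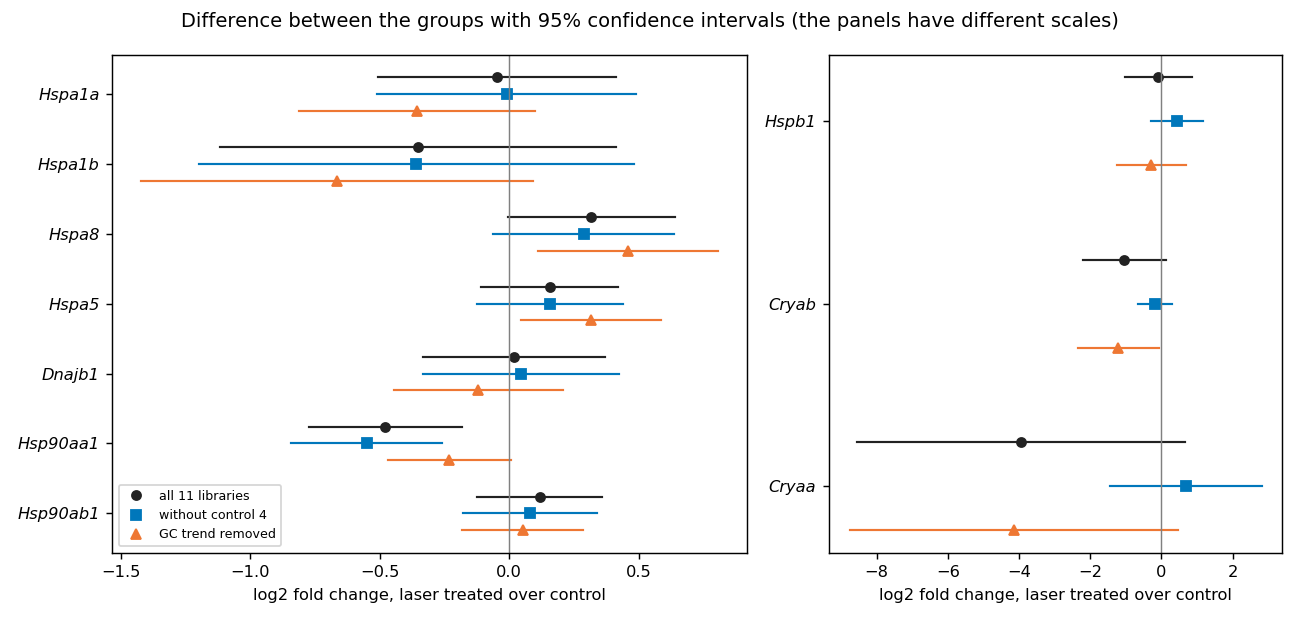
Log2 fold change of laser treated over naïve control libraries with its 95% confidence interval from edgeR for each member, with all 11 libraries, without naïve control library 4 and with the GC trend of each library removed; the panels have different scales. The Cryaa estimate moves from -3.95 to 0.69 without naïve control library 4, and the Hsp90aa1 estimate from -0.48 to -0.23 with the GC trend removed.

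Whether the members varied together was examined over the 11 libraries by the correlation of log2 CPM for all 45 pairs. By Pearson's r, 6 pairs had a permutation p under 0.05 and 1 of them an adjusted p under 0.05, and by Spearman's rho 0 pairs had an adjusted p under 0.05. That pair was Hspb1 and Cryab, both small heat shock proteins, with r = 0.84 (permutation p = 0.00045, adjusted p = 0.0202) and rho = 0.79 (permutation p = 0.0057, adjusted p = 0.128). Without the 2 libraries farthest from the median of Hspb1 r was 0.57, without naïve control library 4 it was 0.67, and it was 0.74 over the 5 libraries labelled R1 and 0.91 over the 6 labelled R2. With naïve control library 4, laser treated library 1 or laser treated library 5 left out, or on log2(TPM + 1), 0 pairs had an adjusted p under 0.05.

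Hspa1a and Hspa1b had r = 0.78 (permutation p = 0.0047, adjusted p = 0.0705) and rho = 0.64 (permutation p = 0.0406, adjusted p = 0.366). It was 0.51 without the 2 libraries farthest from the median of Hspa1a, 0.78 over R1 and 0.77 over R2, and shared sequence between the genes bears on this pair. Hspa1b and Hspa5 ran in opposite directions, with r = -0.79 (permutation p = 0.0047, adjusted p = 0.0705) and rho = -0.84 (permutation p = 0.0022, adjusted p = 0.101). That relation was -0.52 without the 2 libraries farthest from the median of Hspa1b, -0.96 over R1 and -0.34 over R2. Hspa8 and Hsp90aa1 had r = -0.67 (permutation p = 0.0261, adjusted p = 0.235) and rho = -0.65 (permutation p = 0.0338, adjusted p = 0.366), with -0.50 without the 2 farthest libraries, -0.95 over R1 and -0.28 over R2. With the group means removed, r was -0.46 for this pair, whose log2 fold changes had opposite signs. It was then 0.80 for Hspa1a and Hspa1b and -0.75 for Hspa1b and Hspa5. Cryab and Cryaa had r = 0.78 (permutation p = 0.0171, adjusted p = 0.192) and rho = 0.42 (permutation p = 0.203, adjusted p = 0.571), and r was 0.31 without naïve control library 4, so that this relation rested on that library.

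**Figure D5:**
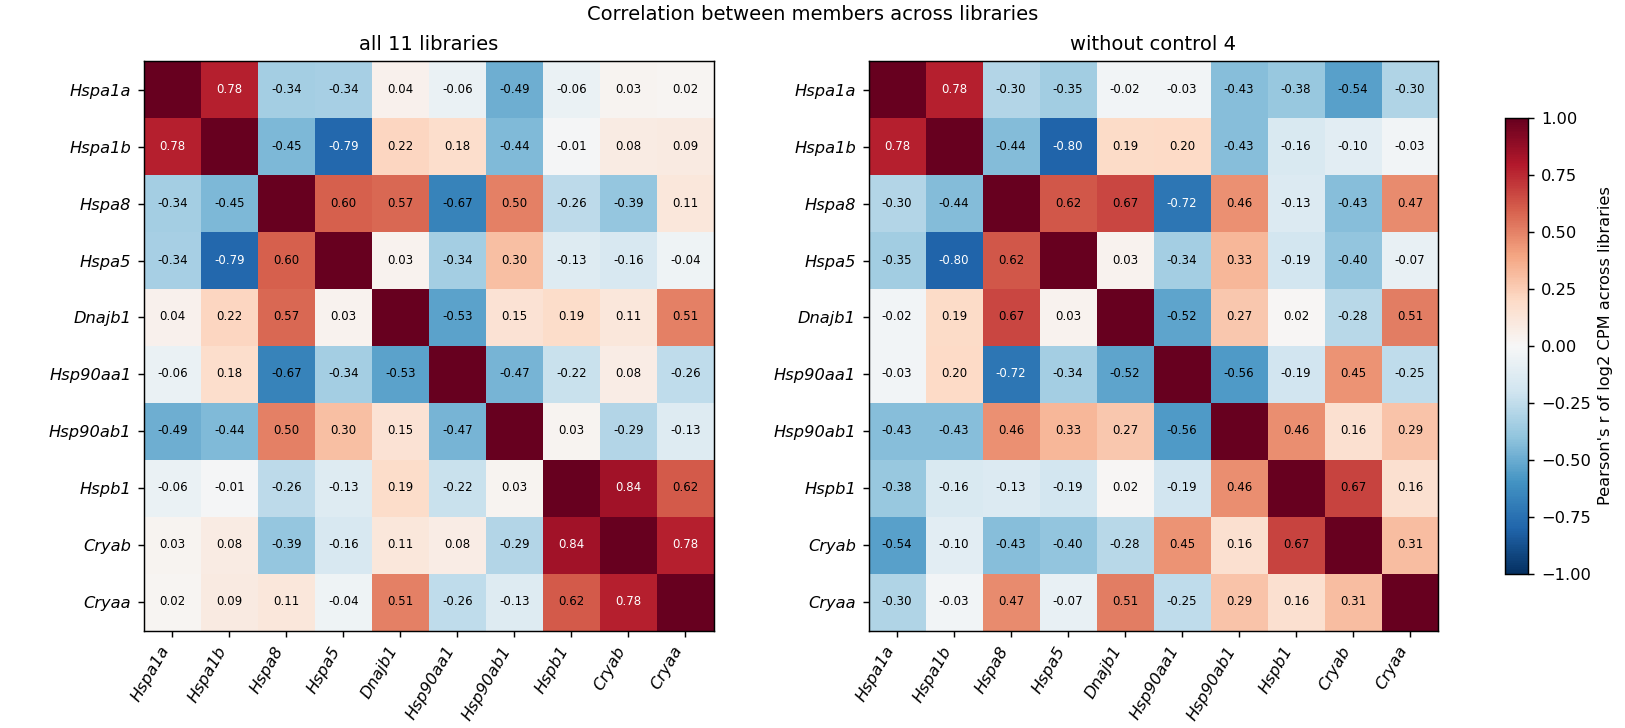
Pearson's r of log2 CPM between the members over all 11 libraries (left) and without naïve control library 4 (right); the scale runs from -1 to 1. Hspb1 and Cryab go from 0.84 to 0.67 and Cryab and Cryaa from 0.78 to 0.31 when that library is left out, while Hspa1a and Hspa1b stay at 0.78.

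Of 60 relations between the members and 6 scores of gene lists, 2 passed the adjustment, that of Cryaa with the lens crystallins and that of Hspa1a with the RPE score. Its r was -0.91 (permutation p = 0.00011, adjusted p = 0.0033) and its rho -0.96 (permutation p = 2e-05, adjusted p = 0.0006). It was -0.85 without the 2 libraries farthest from the median of the score, -0.96 over R1, -0.94 over R2 and -0.91 with the group means removed. Libraries with the lowest RPE score, laser treated library 4 and naïve control libraries 3 and 1, had 41.0, 34.1 and 28.3 CPM of Hspa1a, and those with the highest, laser treated library 1 and naïve control library 6, had 17.7 and 23.5 CPM. The neural retina score moved with Hspa1a too (r = 0.66, permutation p = 0.0269, adjusted p = 0.230; rho = 0.69, permutation p = 0.0225, adjusted p = 0.273), and laser treated library 4 and naïve control libraries 3 and 1 had neural retina scores of 0.74, 1.53 and 1.13, among the 4 highest. Its part in the relation was not tested. Hspa1b had the same sign against the RPE score (r = -0.69, permutation p = 0.0171, adjusted p = 0.205; rho = -0.65, permutation p = 0.0374, adjusted p = 0.374). The genes most like the other members were, with Pearson's r over the 11 libraries, Atp11b (0.93) and Dgke (0.90) for Hspa1a, Serpinb8 (0.90) and Alox12e (0.89) for Hspa1b, Nolc1 (0.97) and Plekha4 (0.94) for Hspa5, and Acsl6 and Mfsd7c (both 0.95) for Hspa8. Hsp90aa1 was most like Smarca5 and Naa20 (both 0.96), Hsp90ab1 like Gm5637 (0.96) and Plxna1 (0.93), and Dnajb1 like Ipo11 (0.93) and Nsmaf (0.91).

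The partners and regulators of the members were taken from 9 lists of 125 genes, of which 111 were measured. At an unadjusted p under 0.05, 13 genes were higher and 9 lower after laser treatment, 19.8% beside the 15.9% of all genes, and 0 had an adjusted p under 0.05. Of 35 cytosolic co-chaperones and HSP70 or HSP90 partners, all measured, 5 were higher, 3 were lower and 27 did not pass; the median log2 fold change was 0.03. Unc45a, a myosin co-chaperone that binds HSP90, averaged 56.0 ± 12.3 CPM over the controls (SD, n = 6) and 94.3 ± 18.9 CPM over the laser treated libraries (SD, n = 5), a log2 fold change of 0.75 (SE 0.18, adjusted p = 0.172 in edgeR's test). Stip1, which bridges HSP70 and HSP90, had 154 ± 11.5 and 211 ± 37.1 CPM, a log2 fold change of 0.46 (SE 0.12, adjusted p = 0.174 in edgeR's test). It was the only 1 of the 35 genes whose groups did not overlap, beside 2.26% of all genes. Ppid, an HSP90-binding prolyl isomerase, and Chordc1 were lower, with -0.43 (SE 0.15, adjusted p = 0.203) and -0.40 (SE 0.14, adjusted p = 0.216). With the GC trend removed, Unc45a and Stip1 were still past an unadjusted p of 0.05 and Ppid and Chordc1 were not. Dnaja1, the most abundant of the list with a mean of 363 CPM, had a log2 fold change of -0.33 (SE 0.17, adjusted p = 0.365).

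Of the 4 measured heat shock factors and regulators, Hsf1, the main activator of heat shock genes, was higher and Hsbp1, a small protein that binds it, was lower at an unadjusted p. Hsf1 averaged 31.9 ± 6.54 CPM over the controls (SD, n = 6) and 50.7 ± 12.0 CPM over the laser treated libraries (SD, n = 5), a log2 fold change of 0.67 (SE 0.19, unadjusted p = 0.0039, adjusted p = 0.177). Hsbp1, also the most abundant of the list, had 236 ± 37.1 and 180 ± 27.2 CPM, a log2 fold change of -0.39 (SE 0.14, unadjusted p = 0.014, adjusted p = 0.214). Both remained past an unadjusted p of 0.05 with the GC trend removed. Of the 5 other small heat shock proteins measured, Hspb11 was lower (log2 fold change -0.82, SE 0.31, adjusted p = 0.226) and the 4 others did not pass. Hspb6, the most abundant of these, had -0.26 (SE 0.15, adjusted p = 0.404).

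In the endoplasmic reticulum, where Hspa5 works, 4 of 16 chaperones were higher and 1 was lower at an unadjusted p, with a median log2 fold change of 0.05. Sil1, the nucleotide exchange factor of BiP, had 0.44 (SE 0.15, adjusted p = 0.210), P4hb, protein disulfide isomerase, 0.32 (SE 0.13, adjusted p = 0.251), and the lectin Canx, the most abundant of the list, -0.27 (SE 0.12, adjusted p = 0.303). Of 10 regulators of the unfolded protein response, Atf6b alone passed, with 0.58 (SE 0.18, adjusted p = 0.186), and Xbp1, the most abundant, had 0.09 (SE 0.12, adjusted p = 0.781). With the GC trend removed, Calr was the only gene of both lists at an unadjusted p under 0.05.

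Of the 8 mitochondrial chaperones, Hspe1 and Hspd1, which together form the HSP60 folding chamber, were lower, with -0.85 (SE 0.30, adjusted p = 0.211) and -0.28 (SE 0.10, adjusted p = 0.221), and Hspa9, the most abundant, had -0.07 (SE 0.14, adjusted p = 0.877). Of 9 subunits of the cytosolic TRiC chaperonin, Cct8, also the most abundant, was lower with -0.27 (SE 0.13, adjusted p = 0.314). Of 16 measured immediate early genes, Jun was higher with 0.89 (SE 0.29, adjusted p = 0.195) and Jund, the most abundant, with 0.37 (SE 0.16, adjusted p = 0.287). Of the 8 measured lens β- and γ-crystallins, 0 passed an unadjusted p of 0.05; their median log2 fold change was -3.97 with all libraries and 0.82 without naïve control library 4, and Crybb2, the most abundant, had -3.98 (SE 2.08, adjusted p = 0.390). With the GC trend removed, Hspe1 was still past an unadjusted p of 0.05, and Hspd1, Cct8, Jun and Jund were not. The 14 pathway genes not measured included the other γ-crystallins Cryga to Crygf.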

How the data were processed

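RNA of RPE/choroid from C57BL/6J mice was measured in 6 naïve control and 5 laser treated libraries, grouped by the labelled treatment. The authors deposited raw counts per gene, not normalized or pooled; per the submitters' processing notes the tools were Trim Galore, STAR 2.5.3a, featureCounts 1.5.3, StringTie 1.3.3 and edgeR 3.22.3 on GRCm38, in roles not given there. The authors' log2 fold change and log2 abundance, their score column (an F statistic) and their p-value columns are the deposited results of their own comparison and were not used. The transcript files deposited by the authors give TPM for assembled transcripts of 1 exon each, which were summed per gene by exon overlap.

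Genes were placed with GENCODE M21 (13045 of 14602 by Ensembl identifier, 1196 by older symbol, 10 by symbol, 351 not). Counts were compared with edgeR 4.0.16 (R 4.3.3): TMM, filterByExpr (0 genes removed), a robust quasi-likelihood fit, and p-values adjusted by Benjamini-Hochberg across the table. The common biological coefficient of variation was 0.58, and counts of 79 and above make the spread between libraries, not depth, the limit. Correlations used log2 CPM (prior count 2) and two-sided permutation tests with 100000 resamples. Alternatives were DESeq2 1.42.0, limma 3.58.1 on log2(TPM + 1) or log2(TPM + 0.1) for genes with a mean TPM of at least 1, upper quartile scaling, other filters (at least 10 counts in every library, or none), no robust estimation, the replicate number as a block, the label R1 or R2 as a covariate, a loess GC trend removed (span 0.3) and each library left out. The neural retina score as a covariate was added after seeing the data. Methods were tested on simulated data. Sequences are from RefSeq (GRCm38.p6).

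The members, lists and markers were chosen with earlier results of these data known. Genes named are the members; from each pathway list the most abundant gene and up to 2 genes with the smallest p per direction among those at an unadjusted p under 0.05; from each marker list the 2 most abundant genes (those of the neural retina list are not reported here); and the 2 genes most like each member. Abundance in these lists is the mean CPM over the libraries, not corrected for gene length. Calr, Cryba2, Cryba4, Crygs, Crygn, Best1 and Mip were named after their values were seen.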

Additional observations from a re-analysis of the deposited data

Results flagged for a closer look

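The values of single libraries were compared with the rest of their group for the 10 members and 7 summed marker or gene lists, in 34 groups in all, by the gap of the highest or lowest library relative to the range of the group (Dixon's criterion at 95%). The gaps were taken on CPM, not on log2 CPM. Chance sets a library apart in about 1 in 20 groups of normally distributed values, and the rate for skewed CPM was not tested. A library was set apart in 9 cases. These cases come from 4 libraries, and 5 of the 9 concern crystallin or lens genes, which are not independent of each other.

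Naïve control library 4 was set apart in 6 of them. It had 9648 CPM of Cryaa (other naïve controls 11.2 to 152), 2693 CPM of Cryab (375 to 526), 20791 CPM of the summed lens β- and γ-crystallins (39.2 to 338), 1054 CPM of the summed lens fibre genes (21.5 to 34.5), 45.05 CPM of Hspb1 (9.24 to 16.9) and 458 CPM of the summed immediate early genes (256 to 330). The part of lens RNA in these values was not tested.

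Laser treated library 2 had 652 CPM of the summed lens β- and γ-crystallins, against 11.5 to 186 CPM in the other laser treated libraries. Laser treated library 5 had 675 CPM of the summed immediate early genes, against 314 to 354 CPM, and also the highest Hspb1 of its group. Laser treated library 4 had 57.5 CPM of Dnajb1, against 41.3 to 45.5 CPM.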

How the results depend on the processing

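Genes past an adjusted p of 0.05 numbered 0 in edgeR's test, 547 with DESeq2, 2 with at least 10 counts in every library, 2 on log2(TPM + 1) and on log2(TPM + 0.1), and 0 to 4 with a library left out, with 4 without laser treated library 2. The number of members at an unadjusted p under 0.05 was 1, beside 15.9% of all genes. It was 2 without robust estimation (15.8% of all genes), with DESeq2 (17.1%), with upper quartile scaling (16.0%) and with the neural retina score as a covariate (15.5%). With the GC trend removed it was 3 (Hspa5, Hspa8 and Cryab, not Hsp90aa1), beside 8.34% of all genes. With a library left out it was 1 to 3, the 3 without naïve control library 6 (beside 19.1% of all genes). It was 4 within R1 (17.6% of all genes) and 0 within R2 (6.22%). Of the pathway genes 22 passed an unadjusted p of 0.05 (beside 15.9% of all genes), 14 with the GC trend removed (beside 8.34%) and 16 to 26 with a library left out. Pairs with an adjusted p under 0.05 numbered 1, 0 on log2(TPM + 1) and 0 to 2 with a library left out, 0 without naïve control library 4, laser treated library 1 or laser treated library 5.

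Of 240 alternative fold changes of the members, 214 kept their sign and, where an adjusted p was given, their side of the threshold. A further 25 turned sign, each with an adjusted p above 0.05, and Hsp90aa1 with DESeq2 passed it. DESeq2 gave no adjusted p for Cryaa, Cryab and Hspb1, which are among the 214 by their sign alone. For Cryaa and Cryab it gave no unadjusted p either, so neither could be counted at an unadjusted p with DESeq2. With a library left out, the ranges were -4.75 to 0.69 for Cryaa, -0.0874 to 0.0729 for Dnajb1, -0.263 to 0.072 for Hspa1a and -0.41 to 0.43 for Hspb1, and these 4 turned sign. Dnajb1 was -0.119 with the GC trend removed, -0.0218 with the neural retina score and -0.077 within R2. Hspa1a was 0.15 and 0.16 on log2(TPM + 1) and log2(TPM + 0.1), 0.0671 with the neural retina score and 0.26 within R2. Hspb1 was 0.0904 and 0.0932 on these scales and 0.48 within R1, Cryaa was 1.48 within R1, and Hspa1b was 0.31 and Hspa5 -0.0561 within R2. The causes were not tested.

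The replicate numbers do not pair the libraries: deviations of same-numbered libraries correlated at -0.0094 to 0.28, and only numbers 2 and 3 matched best with their own. With the replicate number as a block, 2 members (Hspa8 and Hsp90aa1) passed an unadjusted p of 0.05, beside 17.4% of all genes, and 0 genes an adjusted one. Depth limits no member, since the lowest count was 79.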

Other observations

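Other cell types in the eye cup are described by 11 marker lists, whose genes were tested in the same edgeR fit. Of these genes 0 had an adjusted p under 0.05. The counts below stand beside 15.9% of all genes at an unadjusted p under 0.05, 8.24% higher and 7.68% lower. Of 8 measured Schwann cell and myelin markers, 5 were higher in laser treated libraries at an unadjusted p under 0.05, with summed levels of 421 to 746 CPM in naïve control and 622 to 1392 CPM in laser treated libraries. Pmp22 and Sox10, a myelin protein and a glial transcription factor, were the most abundant, with mean levels of 310 and 164 CPM. Of 7 markers of astrocytes and Müller glia, 2 were higher, and Clu, a secreted chaperone that the RPE also makes, and Rlbp1, which the RPE list shares, were the most abundant, with 9790 and 5921 CPM. Of 12 RPE markers, 2 were higher and 1 was lower, and Rgr and Ttr had 60802 and 17246 CPM. Of 17 neural retina markers, 2 were lower. Of 5 measured lens fibre markers, 1 was lower (Mip), and the median log2 fold change was -3.61 with all libraries and 0.69 without naïve control library 4.

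For skeletal muscle (12 measured), smooth muscle and pericytes (10), fibroblasts (7), endothelium (7), macrophages (6) and blood (3), 0 genes passed an unadjusted p of 0.05. The most abundant were Acta1 and Atp2a1 for muscle, Acta2 and Des for smooth muscle, Dcn and Lum for fibroblasts, Plvap and Emcn for endothelium, Lyz2 and Csf1r for macrophages and Hba-a1 and Hba-a2 for blood, with means from 16.6 CPM (Des) to 308 CPM (Lyz2). Their part in the levels of the chaperones was not tested beyond the correlations given.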
